A study of Mus musculus with 28 samples.

Results

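Transforming growth factor beta (TGF-beta) keeps microglia in their resting identity. Here 10 genes that carry its signal were followed through 4 sorted populations, labelled as brain macrophages, in mice with transplanted marrow. The genes were taken by symbol from the deposited table of unique molecular identifier (UMI) counts, and all 10 of the 10 symbols were found among its 14617 genes. They are Tgfb1, Nrros, Tgfbr1, Tgfbr2, Smad2, Smad3, Smad4, Smad7, Ski and Skil, and all 10 passed the filter on low counts. Cx3cr1 gfp/+ recipient mice, whose Cx3cr1-expressing cells are green, were lethally irradiated and given hDNMT3A fl/fl marrow. Marrow with Vav-Cre, which recombines floxed alleles in blood-forming cells and their progeny, is called mutant, and marrow without the Cre is called control. Both kinds of marrow carry the floxed human DNMT3A allele, and they differ in the Cre transgene and the recombination it brings. Cells were sorted 16 weeks after transplantation, GFP-negative for donor origin and GFP-positive for host origin, from the brain parenchyma (labelled microglia) and from the leptomeninges, the thin membranes on the brain surface. Host cells carry no marrow allele, and for them mutant and control name the marrow that their mouse received. A GFP-negative gate can also admit cells that do not express Cx3cr1. The sources used here do not state the age of the mice. Nor do they tie libraries to separate animals, and each p-value below therefore rests on a spread that may be technical.

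The 28 libraries form 8 groups, with 4 libraries each for mutant and control donor leptomeningeal cells, mutant and control donor microglia, and mutant and control host microglia, and 2 libraries each for mutant and control host leptomeningeal cells. Totals ran from 479077 to 3066506 UMIs, and donor microglia were the shallowest population, at 487382 to 1013608 UMIs in mutant and 479077 to 692405 UMIs in control libraries. Levels are counts per 1000000 UMIs (CPM), and in these bulk samples they cannot tell fewer cells of a type from less RNA per cell. Differences are given as log2 fold changes ± SE (standard error), fitted by edgeR after TMM scaling, and so depart somewhat from ratios of CPM. Where a difference is small, its sign can be opposite to that of the CPM means. Apoe alone averaged 94927 ± 15541 CPM in donor microglia and 4141.1 ± 927.3 CPM in host microglia (SD, n = 8 each). A gene was called where its adjusted p was under 0.05 over the 12327 genes tested.

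The labels were set against marker lists. The microglial list includes Cx3cr1, whose locus carries the GFP of the host gate, so its level is not independent of the sort. All 12 microglial markers (P2ry12, Tmem119, Sall1 and others) had UMIs in every group, and together they held 0.813 to 1.0% of UMIs in donor microglia, 3.08 to 3.78% in host microglia, 0.18 to 0.317% in donor and 0.644 to 1.15% in host leptomeningeal cells. The cells labelled donor microglia thus held far fewer microglial transcripts than host microglia, with Sall1, a microglial transcription factor, at 17.1 ± 8.16 CPM in donor microglia and 334.8 ± 23.1 CPM in host microglia (SD, n = 8 each). The 13 border-macrophage markers held 0.42 to 0.739% of UMIs in donor and 1.40 to 1.94% in host leptomeningeal cells. The 12 monocyte markers held 0.342 to 0.673% of UMIs in donor and 0.0646 to 0.0977% in host leptomeningeal cells. The 16 neutrophil markers held 3.66 to 9.83% of UMIs in donor and 0.203 to 0.60% in host leptomeningeal cells, with Elane and Mpo at 0 in host cells with mutant marrow. Endogenous mouse Dnmt3a, which does not report on the floxed human allele, had 60.6 to 78.0 CPM in mutant and 52.2 to 91.9 CPM in control donor microglia and was not called between genotypes there (adjusted p = 0.9046).

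TGF-beta 1, the product of Tgfb1, is secreted in a latent form, and Nrros (LRRC33) tethers that form to the surface of microglia and other myeloid cells until integrins release it. The ligand binds the type II receptor Tgfbr2, which activates the type I receptor Tgfbr1, which phosphorylates Smad2 and Smad3, and these enter the nucleus with Smad4. Smad7 is induced by the pathway and blocks the receptor, while Ski and Skil (SnoN) bind the Smads and recruit co-repressors.

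The promoters of 3 genes are shown because Tgfbr1 and Ski were lower in all 4 comparisons of origin and compartment described below and Smad3 had the steepest fold change between donor and host microglia. Each is the RefSeq window of 300 bases on GRCm38.p6, from 250 bases before to 50 bases after the start, and Tgfbr1 has a second listed start that is not printed. Tgfbr1 lies at chr4:47352972-47353271 on the plus strand, Smad3 at chr9:63757945-63758244 on the minus strand and Ski at chr4:155222486-155222785 on the minus strand. Capitals mark GGCGC, a GC-rich site that Smads can bind, on either strand.
Tgfbr1: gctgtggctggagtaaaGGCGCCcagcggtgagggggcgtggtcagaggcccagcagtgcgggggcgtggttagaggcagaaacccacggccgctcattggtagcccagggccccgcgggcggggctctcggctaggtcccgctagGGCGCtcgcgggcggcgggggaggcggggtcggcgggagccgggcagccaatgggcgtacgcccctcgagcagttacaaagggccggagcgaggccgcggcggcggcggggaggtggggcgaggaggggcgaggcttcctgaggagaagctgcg
Smad3: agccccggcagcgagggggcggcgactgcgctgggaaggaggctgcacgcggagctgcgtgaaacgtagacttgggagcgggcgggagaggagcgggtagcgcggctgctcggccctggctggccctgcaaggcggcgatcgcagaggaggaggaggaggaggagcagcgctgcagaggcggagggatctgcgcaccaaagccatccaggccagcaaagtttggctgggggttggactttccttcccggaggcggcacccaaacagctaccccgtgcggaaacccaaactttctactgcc
Ski: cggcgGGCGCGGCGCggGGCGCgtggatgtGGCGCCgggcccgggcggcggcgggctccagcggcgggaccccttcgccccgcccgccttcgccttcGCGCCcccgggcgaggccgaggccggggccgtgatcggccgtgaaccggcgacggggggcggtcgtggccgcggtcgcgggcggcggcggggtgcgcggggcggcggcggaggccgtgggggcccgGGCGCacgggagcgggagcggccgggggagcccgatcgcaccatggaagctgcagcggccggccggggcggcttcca
GGCGC matched 3 times in the Tgfbr1 window, 0 times in the Smad3 window and 7 times in the Ski window, some of them overlapping, and 36.9% of 32851 RefSeq promoter windows of this length hold it. Neither the Smad box CAGAC (49.6% of windows) nor GAGGAA, a core that PU.1-type ETS factors bind (28.3% of windows), was found in these 3 windows on either strand. The window of the second Tgfbr1 start, chr4:47385966-47386265, held 1 CAGAC, 1 GAGGAA and 0 GGCGC. The 3 printed windows are GC-rich, at 74.7% for Tgfbr1, 67.7% for Smad3 and 85.3% for Ski. Matches describe letters and are not evidence of binding. Of the 10 genes, 6 had a promoter entry, and Smad2, Smad4, Smad7 and Skil had none.

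**Figure D1:**
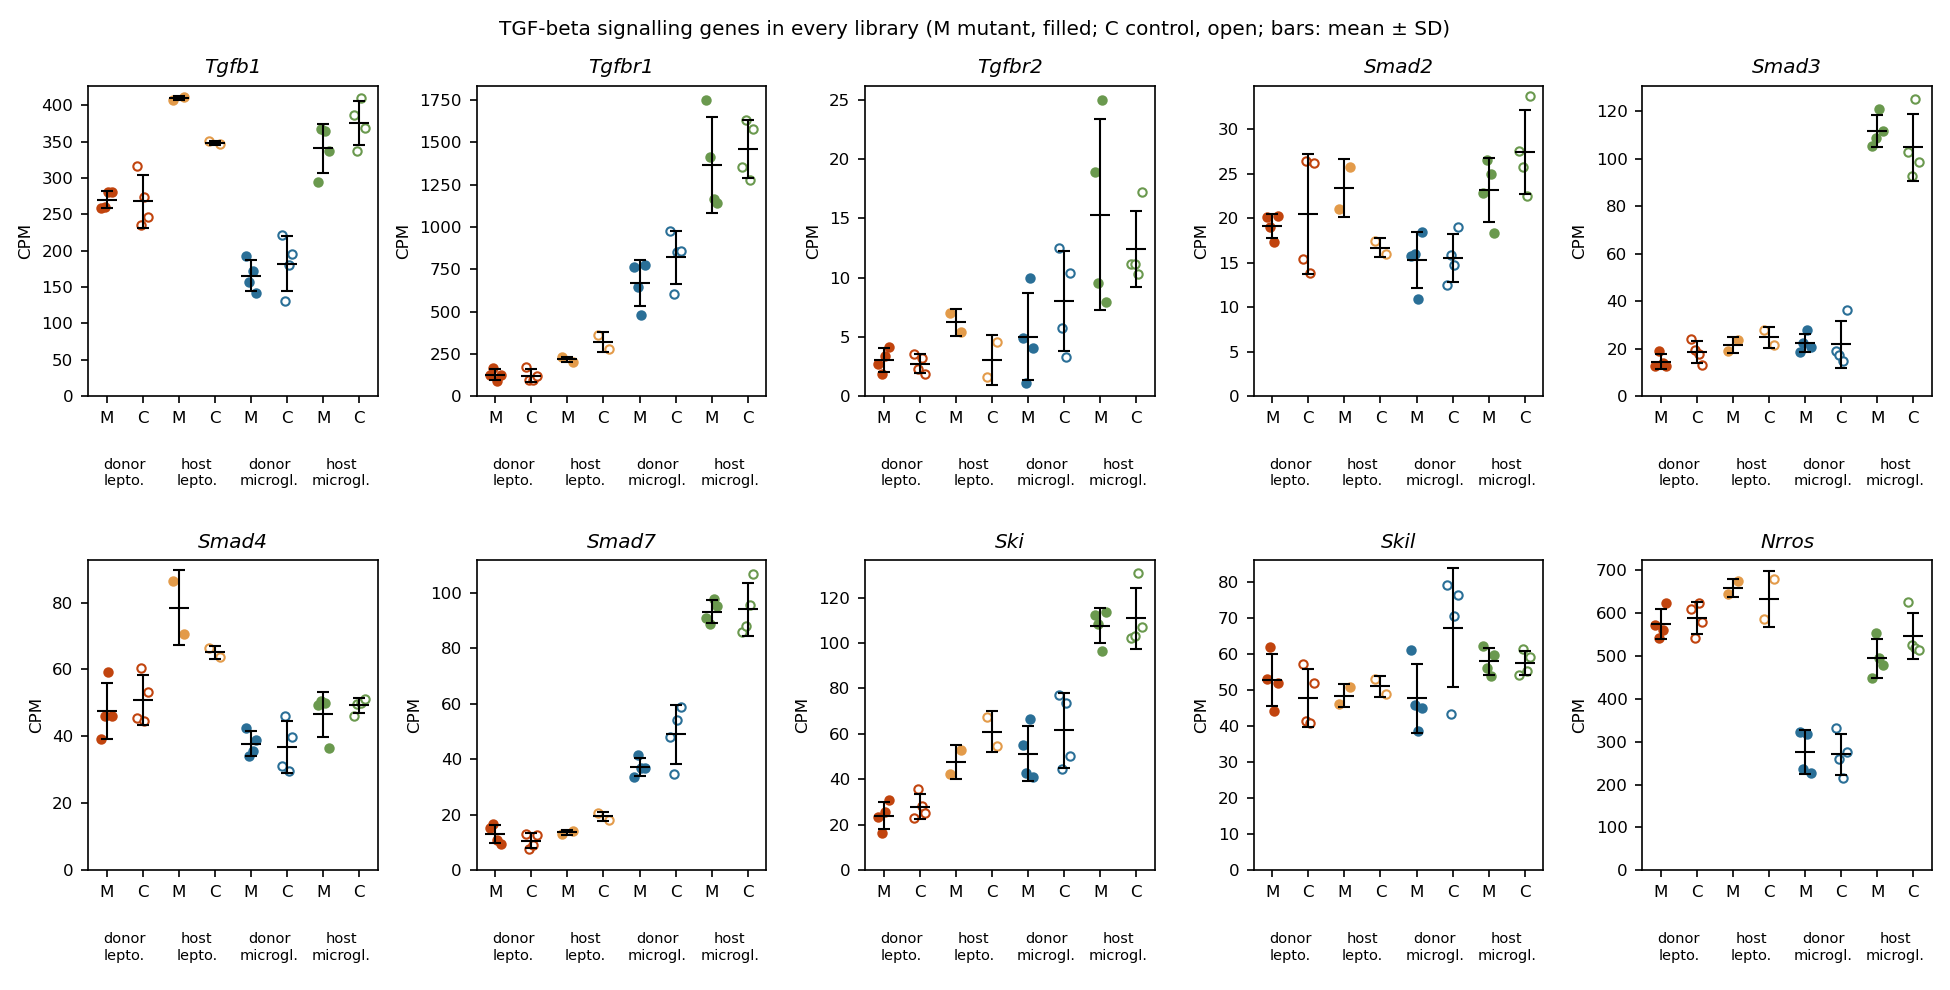
Level of each of the 10 genes in every library, in CPM on linear axes from 0, by population and by marrow genotype (M mutant, filled points; C control, open points), with group mean ± SD (n = 4, or n = 2 for host leptomeningeal cells). Tgfbr1, Smad3, Smad7 and Ski stand highest in host microglia, Tgfb1 and Nrros are lowest in donor microglia, and Skil lies between 38.7 and 79.3 CPM in every library.

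Donor minus host microglia set marrow-derived cells of the parenchyma against the resident microglia beside them. The recipients were irradiated before the marrow was given. Origin and irradiation therefore cannot be told apart in comparisons of donor with host cells. Of the 10 genes, 8 fell and 0 rose in donor microglia, while 60.4% of all genes tested were called in this comparison and 27.3% were lower. The median log2 fold change was -0.77 over the 10 genes and 0.04 over all genes tested.

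Both genes on the ligand side fell. Tgfb1 (chromosome 7, 25687002 to 25705077, mm10) ranged from 131 to 221 CPM with a median of 176 CPM in donor microglia, against 294 to 409 CPM with a median of 366 CPM in host microglia. The libraries of donor and host microglia did not overlap, and Tgfb1 fell by 0.87 ± 0.09 on the log2 scale (adjusted p = 2.395e-11, lower in 8 of 8 donor libraries than in every host library). Nrros (chromosome 16, 32142785 to 32165594) ranged from 215 to 332 CPM with a median of 268 CPM in donor microglia, against 448 to 626 CPM with a median of 517 CPM in host microglia. It fell by 0.75 ± 0.09, again with no overlap (adjusted p = 3.874e-10).

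The receptors were lower as well. Tgfbr1 (chromosome 4, 47353222 to 47414931) ranged from 481 to 975 CPM with a median of 771 CPM in donor microglia, against 1142 to 1751 CPM with a median of 1386 CPM in host microglia. No library overlapped, and the gene fell by 0.75 ± 0.13 (adjusted p = 2.453e-05). Besides the fit with astrocyte and neuron markers described below, 1 alternative fit lost this call (adjusted p = 0.1124). Tgfbr2 (chromosome 9, 116084293 to 116175360) was sparse, at 1.07 to 12.5 CPM in donor microglia and 7.94 to 25.0 CPM in host microglia. These levels rest on 1 to 10 UMIs in donor and 13 to 50 UMIs in host libraries. The libraries overlapped, and it fell by 0.95 ± 0.31 (adjusted p = 0.006993), a call lost in 2 alternative fits (adjusted p = 0.4024 and 0.8984).

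Among the Smads that carry the signal, Smad3 stood apart. Smad3 (chromosome 9, 63646767 to 63757994) had 18.7, 22.4, 27.8 and 20.5 CPM in mutant and 18.8, 17.3, 14.8 and 36.4 CPM in control donor microglia. Host microglia had 105, 109, 121 and 112 CPM with mutant and 103, 92.5, 125 and 98.5 CPM with control marrow. Every host library was above every donor library, and the gene fell by 2.11 ± 0.14, that is to 0.232 of the host level (adjusted p = 2.459e-17). Smad2 (chromosome 18, 76241580 to 76310963), the other Smad phosphorylated by Tgfbr1, ranged from 10.9 to 19.1 CPM in donor and 18.3 to 33.8 CPM in host microglia and fell by 0.55 ± 0.18 with overlapping libraries (adjusted p = 0.006985). Smad4 (chromosome 18, 73639009 to 73703780), their common partner, had 37.3 ± 5.66 CPM in donor and 48.0 ± 4.83 CPM in host microglia (SD, n = 8 each), a log2 fold change of -0.18 ± 0.12 that did not pass (adjusted p = 0.2081). The annotation places a processed pseudogene, AC132418.2, over 274 bases of Smad4 on the other strand, away from the 3′ end that is counted.

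Of the inhibitors, 2 of 3 fell. Smad7 (chromosome 18, 75367529 to 75395935) ranged from 33.5 to 59.0 CPM with a median of 39.3 CPM in donor microglia, against 85.8 to 107 CPM with a median of 93.0 CPM in host microglia. Ski (chromosome 4, 155154075 to 155222592) ranged from 41.0 to 77.2 CPM with a median of 52.8 CPM in donor microglia, against 96.6 to 131 CPM with a median of 108 CPM in host microglia. Neither gene had overlapping libraries, and Smad7 fell by 0.96 ± 0.12 and Ski by 0.78 ± 0.13 (adjusted p = 1.593e-09 and 6.991e-07). Skil (chromosome 3, 31095058 to 31122577), the relative of Ski, had 57.5 ± 16.3 CPM in donor and 57.8 ± 3.30 CPM in host microglia, with a log2 fold change of 0.14 ± 0.12 (adjusted p = 0.3056). Ski and Skil thus lay apart in this comparison, although the difference between their fold changes was not tested.

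Transcripts of other brain cells differed between the same libraries. The 13 astrocyte markers held 0.122 to 0.549% of UMIs in donor and 0.0328 to 0.047% in host microglia, with Aqp4 and Sox9 at 0 in control host microglia. The 13 neuron markers held 0.0242 to 0.114% in donor and 0.00141 to 0.00333% in host microglia, with Gad2 at 0 in control host microglia. The 8 choroid plexus and ependyma markers in the table held 1.67 to 3.50% in donor and 0.000441 to 0.0179% in host microglia. With the level of the astrocyte and neuron markers as a covariate, 0 of the 10 genes were called and 2 of the 8 that had fallen turned in direction, Ski to 0.51 ± 0.69 and Tgfbr1 to 0.10 ± 0.69 (adjusted p = 0.7891 and 0.98). In that fit SEs ran from 0.44 to 1.83, against 0.09 to 0.31 without it, and the marker shares themselves did not overlap between donor and host libraries. Tgfb1 then had a log2 fold change of -0.00 ± 0.48 (adjusted p = 1), Nrros one of -0.49 ± 0.44 (adjusted p = 0.6301) and Smad3 one of -2.47 ± 0.92 (adjusted p = 0.1093), and beyond this fit the part of these transcripts in the result was not tested.

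**Figure D2:**
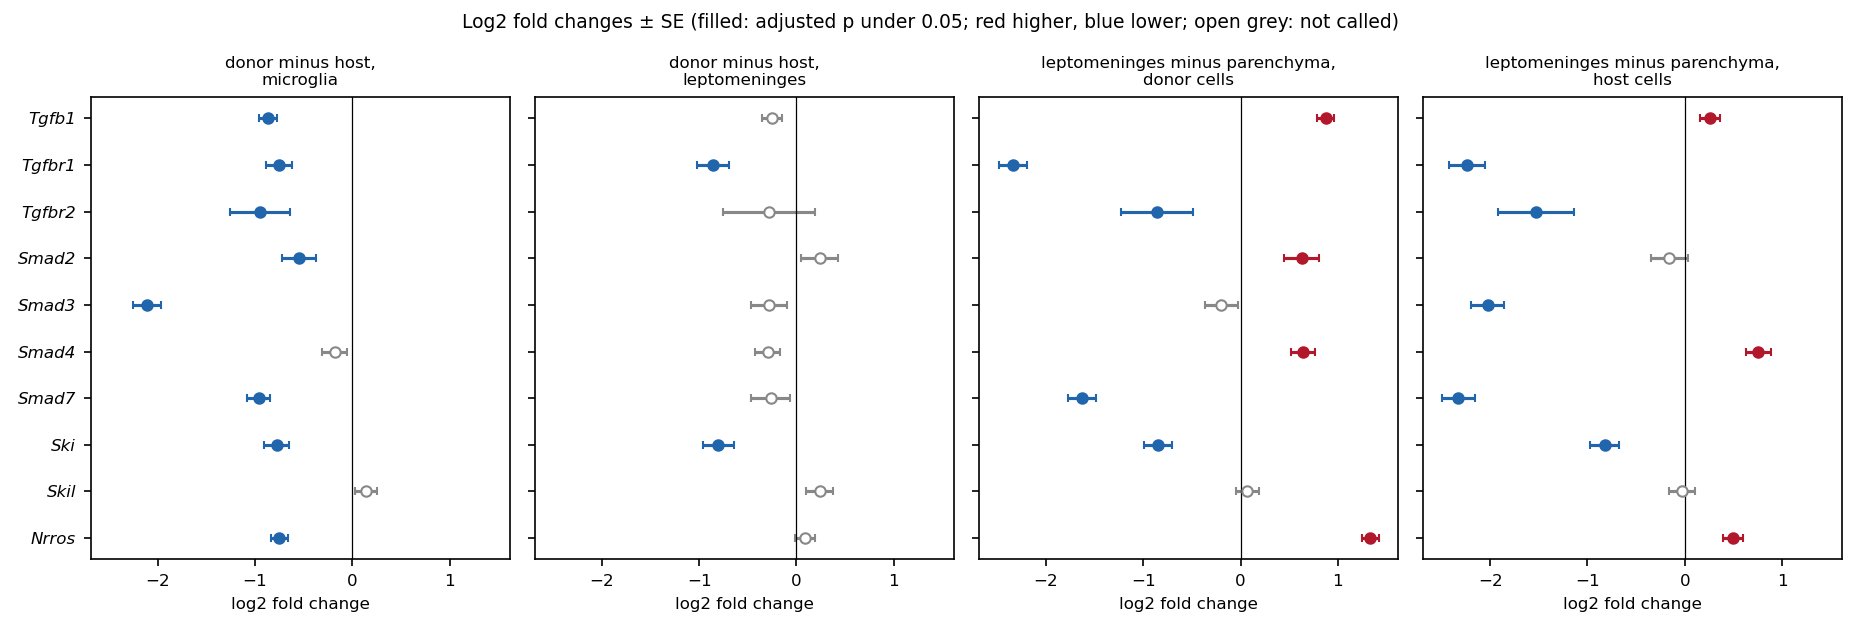
Log2 fold changes ± SE of the 10 genes in 4 comparisons, with filled red points for genes called higher, filled blue points for genes called lower and open grey points for genes not called at adjusted p under 0.05. Tgfbr1 and Ski lie left of 0 and are called in all 4 panels, and Smad3 lies at -2.11 and -2.03 where host microglia are the group subtracted and at -0.28 and -0.20 elsewhere.

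In the leptomeninges the same comparison of donor minus host cells (8 against 4 libraries) called 2 of the 10 genes, both lower, while 30.2% of all genes tested were called, 16.9% as higher and 13.3% as lower. Tgfbr1 had 126, 167, 89.9 and 128 CPM in mutant and 174, 95.2, 95.9 and 121 CPM in control donor leptomeningeal cells, against 229 and 205 CPM in host cells with mutant marrow and 364 and 279 CPM in host cells with control marrow. All 4 host libraries were above all 8 donor libraries, and Tgfbr1 fell by 0.86 ± 0.17 (adjusted p = 0.0002334). Ski ranged from 16.5 to 35.9 CPM in donor and 42.2 to 67.4 CPM in host leptomeningeal cells, also without overlap, and fell by 0.80 ± 0.16 (adjusted p = 7.171e-05).

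The other 8 genes did not pass in the leptomeninges. Smad3 had 16.6 ± 4.15 CPM in donor and 23.0 ± 3.66 CPM in host cells (SD, n = 8 and 4), a log2 fold change of -0.28 ± 0.19 (adjusted p = 0.2807). Nrros had 581.6 ± 33.6 CPM in donor and 646.2 ± 42.4 CPM in host cells, with a fitted log2 fold change of 0.08 ± 0.10 (adjusted p = 0.5915). Its sign is opposite to that of the CPM means. Tgfb1 missed the threshold narrowly, with a log2 fold change of -0.26 ± 0.10 and libraries that did not overlap (adjusted p = 0.0581, and 0.01325 to 0.04599 in the 11 alternative fits that called it, 4 of which leave out 1 donor leptomeningeal library, namely control 1, control 3, mutant 3 or mutant 4). Smad4, with 39.3 to 60.3 CPM in donor and 63.8 to 86.3 CPM in host cells and no overlap, had a log2 fold change of -0.30 ± 0.13 (adjusted p = 0.07291). It was called by voom and when mutant donor library 3, control donor library 2 or mutant host library 2 was left out (adjusted p = 0.02082 to 0.04186).

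The microglial marker share moved with Tgfbr1 among the host leptomeningeal libraries. It was 0.684 and 0.644% in the 2 host libraries with mutant marrow, which held 229 and 205 CPM of Tgfbr1, and 1.15 and 0.868% in the 2 with control marrow, which held 364 and 279 CPM. Its part in the result was not tested. With the neutrophil markers as a covariate Ski was still called (-1.34 ± 0.35, adjusted p = 0.01833) and Tgfbr1 was not (-0.11 ± 0.30, adjusted p = 0.9298).

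**Figure D3:**
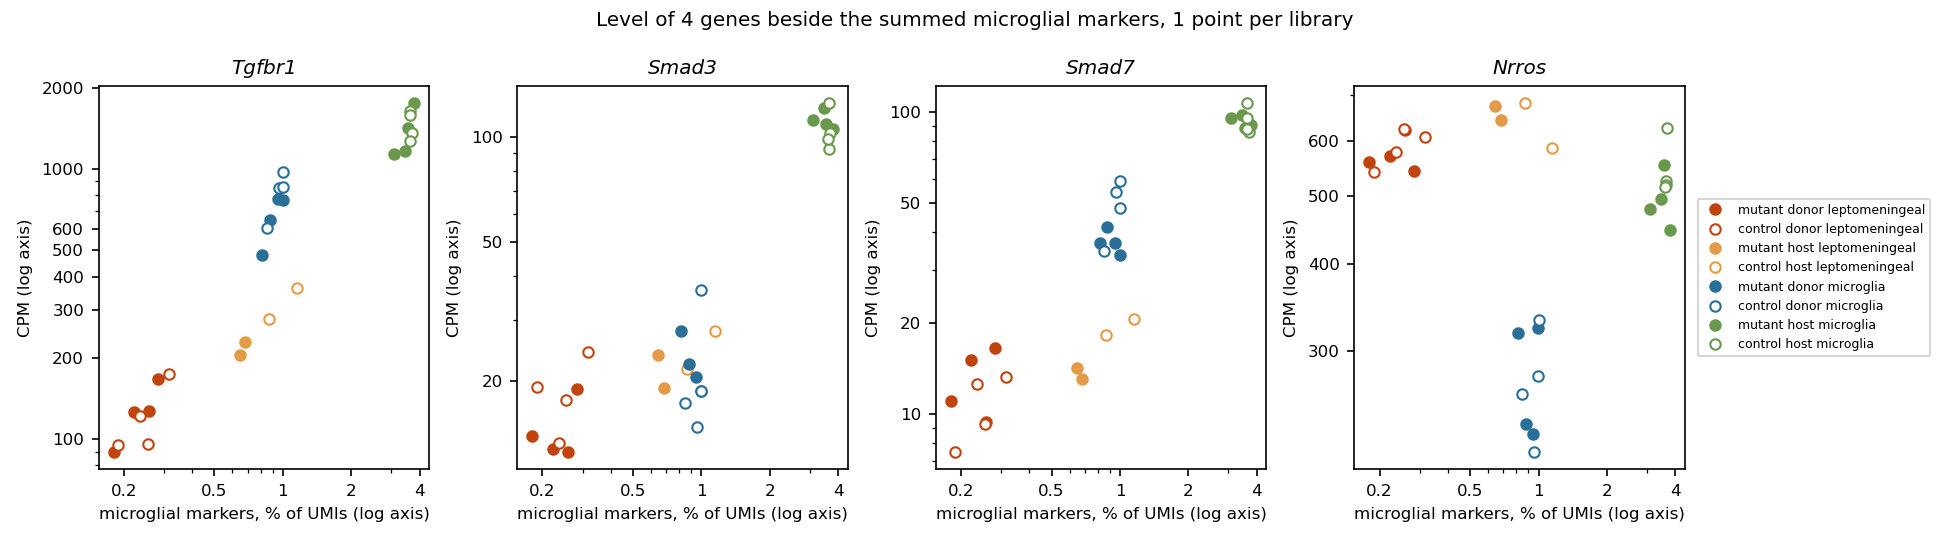
Level of Tgfbr1, Smad3, Smad7 and Nrros (CPM, log axes) against the summed share of 12 microglial markers in the same library (percent of UMIs, log axis), 1 point per library, filled for mutant and open for control marrow. Tgfbr1 is lowest in donor leptomeningeal cells, which have the smallest marker share, and highest in host microglia, which have the largest. Donor microglia and host leptomeningeal cells overlap in marker share, at 0.813 to 1.0% and 0.644 to 1.15% of UMIs. Tgfbr1 does not overlap between them, at 481 to 975 CPM and 205 to 364 CPM. Smad3 is near 100 CPM only in host microglia. Nrros is lowest in donor microglia, whose marker share lies between those of donor leptomeningeal cells and host microglia.

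Donor minus host was itself compared between the compartments by an interaction term, which called 42.2% of all genes tested and 5 of the 10 genes, all 5 toward a higher donor-minus-host value in the leptomeninges (19.1% of all genes were called in that direction and 23.2% in the other). The difference was 1.83 ± 0.24 for Smad3 (adjusted p = 2.441e-08), 0.84 ± 0.14 for Nrros (adjusted p = 2.368e-06) and 0.61 ± 0.14 for Tgfb1 (adjusted p = 0.0003994). It was 0.79 ± 0.26 for Smad2 and 0.70 ± 0.23 for Smad7 (adjusted p = 0.01328 and 0.01199). Tgfbr1 and Ski, lower in donor cells of both compartments, had differences of -0.10 ± 0.22 and -0.03 ± 0.20 (adjusted p = 0.7589 and 0.9537), so an unequal step was not detected for them. With the astrocyte and neuron covariate 0 of the 10 differences were called, and Tgfb1 turned to -0.34 ± 0.52 (adjusted p = 0.8768).

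Leptomeningeal minus parenchymal cells asked how the genes differ between the 2 compartments within an origin. These comparisons reuse the libraries of the donor-minus-host comparisons. In donor cells 4 of the 10 genes rose and 4 fell, with 62.1% of all genes tested called (30.5% higher and 31.6% lower), and in host cells 3 rose and 5 fell, with 56.7% called (31.1% higher and 25.7% lower).

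The ligand and its anchor stood higher in the leptomeninges. Nrros ranged from 542 to 624 CPM with a median of 575 CPM in donor leptomeningeal cells, against 215 to 332 CPM with a median of 268 CPM in donor microglia, and rose by 1.33 ± 0.09 without overlap (adjusted p = 1.613e-17). In host cells Nrros had 644 and 674 CPM with mutant and 587 and 680 CPM with control marrow in the leptomeninges, against 448 to 626 CPM in microglia, and rose by 0.50 ± 0.10 with overlap (adjusted p = 4.988e-05). Tgfb1 rose by 0.87 ± 0.09 in donor cells, with 269 ± 25.0 CPM in leptomeningeal cells and 174 ± 29.9 CPM in microglia (SD, n = 8 each; adjusted p = 2.354e-11). With the astrocyte and neuron covariate that step was 0.22 ± 0.36 and was not called (adjusted p = 0.8015). Its step in host cells was small, with 379 ± 35.5 CPM in the leptomeninges and 358 ± 35.2 CPM in microglia (SD, n = 4 and 8). That log2 fold change of 0.26 ± 0.10 passed (adjusted p = 0.02864), and it did not pass when any single 1 of the 4 host leptomeningeal libraries, control host microglia library 2 or mutant host microglia library 1 was left out (adjusted p = 0.05121 to 0.149). In all, 9 alternative fits lost this call, 6 of them by leaving out 1 library (adjusted p = 0.05111 to 0.2147 over the 9).

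The type I receptor went the other way. Tgfbr1 had 89.9 to 174 CPM in donor leptomeningeal cells and 481 to 975 CPM in donor microglia, and it fell by 2.34 ± 0.14 (adjusted p = 1.584e-13). In host cells it had 205 to 364 CPM in the leptomeninges and 1142 to 1751 CPM in microglia and fell by 2.23 ± 0.18 (adjusted p = 6.833e-11). The libraries of the 4 populations did not overlap, with host microglia highest, then donor microglia, host leptomeningeal cells and donor leptomeningeal cells, and an 11.4-fold span between the highest and lowest mean CPM. Tgfbr2 fell by 1.53 ± 0.39 in host cells (adjusted p = 0.0009387), a call lost in 2 alternative fits (adjusted p = 0.1169 and 0.126). In donor cells it fell by 0.86 ± 0.37 (adjusted p = 0.0388), a call lost without any single 1 of 7 donor libraries (control microglia 1 and 4, mutant microglia 1 and 3, control leptomeningeal 2 and 4, mutant leptomeningeal 2), where adjusted p ran from 0.05254 to 0.2512. Over all alternatives 11 fits lost this donor call, 7 of them these, with adjusted p up to 0.9549.

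Among the Smads, Smad4 rose in both origins, by 0.64 ± 0.12 in donor cells (49.2 ± 7.50 CPM in leptomeningeal cells and 37.3 ± 5.66 CPM in microglia, SD, n = 8 each; adjusted p = 1.386e-05) and by 0.76 ± 0.13 in host cells (71.8 ± 10.1 CPM in leptomeningeal cells and 48.0 ± 4.83 CPM in microglia, n = 4 and 8; adjusted p = 2.106e-06). The donor call of Smad4 was lost with the astrocyte and neuron covariate and with the neutrophil covariate (adjusted p = 0.4231 and 0.3767). Smad3 fell by 2.03 ± 0.17 in host cells, where leptomeningeal libraries held 19.1 and 23.7 CPM with mutant and 27.7 and 21.6 CPM with control marrow against 92.5 to 125 CPM in microglia (adjusted p = 1.815e-14). In donor cells Smad3 was low in both places, at 12.6 to 24.2 CPM in leptomeningeal cells and 14.8 to 36.4 CPM in microglia, and its log2 fold change of -0.20 ± 0.17 did not pass (adjusted p = 0.3214). Smad3 was therefore high in host microglia alone among the 4 populations, and the other 3 populations overlapped. Smad2 rose by 0.63 ± 0.18 in donor cells (adjusted p = 0.002122), to be set beside 0.29 ± 0.79 with the astrocyte and neuron covariate and 0.36 ± 0.46 with the neutrophil covariate, neither of them called (adjusted p = 0.9393 and 0.6321). Smad2 had a log2 fold change of -0.16 ± 0.19 in host cells (adjusted p = 0.5021).

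The inhibitors split again. Smad7 had 7.50 to 16.5 CPM in donor leptomeningeal cells and 33.5 to 59.0 CPM in donor microglia, and 13.1 to 20.6 CPM in host leptomeningeal cells and 85.8 to 107 CPM in host microglia. It fell by 1.63 ± 0.14 in donor cells and by 2.33 ± 0.17 in host cells without overlap (adjusted p = 1.911e-13 and 1.958e-16). Ski fell by 0.85 ± 0.14 in donor and by 0.82 ± 0.15 in host cells (adjusted p = 1.001e-06 and 7.235e-06), with its lowest population mean, 26.1 ± 5.79 CPM, in donor leptomeningeal cells. The host call of Ski was lost in 1 alternative fit (adjusted p = 0.2949). Skil had log2 fold changes of 0.07 ± 0.12 in donor and -0.03 ± 0.14 in host cells (adjusted p = 0.6274 and 0.8855), and it was the 1 gene of the 10 called in none of the comparisons. Fibroblast markers moved with the compartment, at 0.363 to 0.507% of UMIs in donor leptomeningeal cells and 0.0557 to 0.104% in donor microglia, and at 0.37 to 0.563% in host leptomeningeal cells and 0.00269 to 0.0036% in host microglia. Of these 12 markers Lum was at 0 in both groups of host leptomeningeal cells and of host microglia. Col1a1 was also at 0 in host leptomeningeal cells with mutant marrow, and Col3a1 in those with control marrow. The share there thus comes from other members of the list. The part of these markers in the results was not tested.

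Other marker lists also moved with the compartment in donor cells. Neutrophil markers held 3.66 to 9.83% of UMIs in donor leptomeningeal cells and 0.111 to 1.11% in donor microglia. Choroid plexus and ependyma markers held 0.000674 to 0.0407% in donor leptomeningeal cells and 1.67 to 3.50% in donor microglia, and astrocyte markers held 0.0285 to 0.0393% in donor leptomeningeal cells and 0.122 to 0.549% in donor microglia. Of the 8 genes called between the compartments in donor cells, 5 were called with the neutrophil covariate and 4 with the astrocyte and neuron covariate. Tgfbr1, Smad7, Ski and Nrros were called in both of these fits. SEs of the 10 genes ran from 0.227 to 0.833 with the neutrophil covariate and from 0.337 to 1.415 with the astrocyte and neuron covariate. Without a covariate they ran from 0.088 to 0.367. The marker shares themselves did not overlap between the compartments, so neither fit can separate the share from the compartment.

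Between mutant and control marrow, the comparison the study was built on, 0 of the 10 genes were called by edgeR in any of the 4 populations. Over all genes tested, edgeR called 0.0892% in donor microglia (0.0568% higher and 0.0324% lower) and 0.0649% in host microglia (0.0568% higher and 0.00811% lower). It called 0.0487% in donor leptomeningeal cells (0.0324% higher and 0.0162% lower) and 0% in host leptomeningeal cells. At an unadjusted p under 0.05 there were 1253 genes in donor microglia, 463 in host microglia, 597 in donor leptomeningeal cells and 666 in host leptomeningeal cells, and of the 10 only Skil in donor microglia was among them. DESeq2 and limma's voom also called 0 of the 10 in each population, while over all genes DESeq2 and voom called 81 and 124 in donor microglia, 15 and 5 in host microglia, 8 and 11 in donor leptomeningeal cells and 25 and 0 in host leptomeningeal cells. Both differences between genotype effects, donor minus host microglia and leptomeningeal minus parenchymal donor cells, likewise called 0 of the 10 by edgeR (0.0324% of all genes, 0.0162% in each direction, for the first and 0% for the second, with 745 and 787 genes at an unadjusted p under 0.05, 1 and 2 of them among the 10).

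Skil in donor microglia had 61.2, 45.9, 38.7 and 45.1 CPM in mutant and 79.3, 43.3, 70.5 and 76.3 CPM in control donor microglia. Of the control libraries 3 lay above every mutant library and library 2 lay among them. In edgeR's quasi-likelihood test the log2 fold change was -0.45 ± 0.19 (adjusted p = 0.3901). Without control library 2 it was -0.60 ± 0.18 and passed (adjusted p = 0.0482), in a fit that called 544 genes in place of 11. Control library 2 was also the lowest of its group for Tgfb1, Tgfbr1, Smad7 and Ski. It held 0.549% of its UMIs as astrocyte markers, against 0.122, 0.157 and 0.196% in the other 3 control libraries and 0.318 to 0.51% in the mutant libraries, and the part of this share was not tested.

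The remaining log2 fold changes in donor microglia ran from -0.56 ± 0.55 for Tgfbr2 to 0.07 ± 0.27 for Smad3. Tgfbr1 had 767, 648, 481 and 776 CPM in mutant and 975, 604, 851 and 857 CPM in control donor microglia, which overlapped (-0.28 ± 0.19, adjusted p = 0.6385). In host microglia the 10 log2 fold changes ran from -0.22 ± 0.19 for Smad2 to 0.31 ± 0.31 for Tgfbr2, and in donor leptomeningeal cells from -0.35 ± 0.20 for Smad3 to 0.29 ± 0.21 for Smad7. In host leptomeningeal cells, with 2 libraries a group, Tgfb1 had 408 and 411 CPM with mutant and 350 and 346 CPM with control marrow (0.28 ± 0.17, adjusted p = 0.9425), and Tgfbr1 had 229 and 205 CPM with mutant and 364 and 279 CPM with control marrow (-0.52 ± 0.28, adjusted p = 0.9261).

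**Figure D4:**
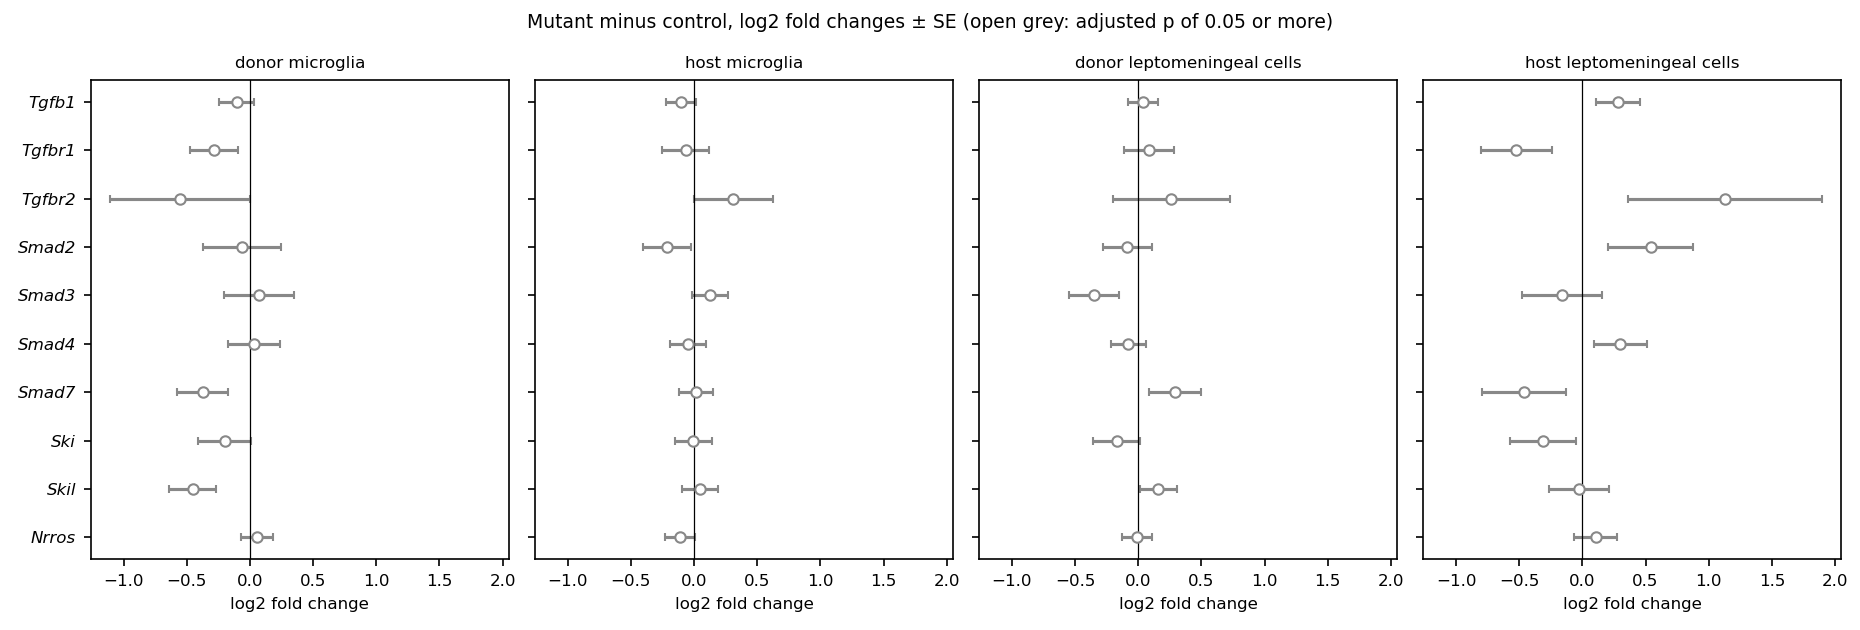
Mutant minus control log2 fold changes ± SE of the 10 genes in the 4 populations (open grey points, adjusted p of 0.05 or more). All 40 points are open, and Tgfbr2 and the host leptomeningeal cells, with 2 libraries a group, have the widest SEs.

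Other genes of the pathway were described from lists written with earlier results of these data known. Some lists hold members of the 10, and these are counted in them. Among 25 genes known to need TGF-beta in mouse microglia, all 25 fell in donor minus host microglia (27.3% of all genes fell, list median -1.63). Golm1, a Golgi membrane protein, had 89.4 ± 15.2 CPM in donor and 527 ± 44.6 CPM in host microglia (SD, n = 8 each; -2.40, adjusted p = 9.582e-25). Adgrg1 (GPR56), an adhesion receptor, had 81.2 ± 7.40 CPM in donor and 1045 ± 57.9 CPM in host microglia (-3.50, adjusted p = 4.865e-21). The list shares 12 of its 25 genes, Cx3cr1 among them, with the microglial markers used above, so the count and the marker share given above are not independent.

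In the other 3 comparisons of origin and compartment this list fell in most members. It had 23 of 25 lower in donor minus host leptomeningeal cells, where 13.3% of all genes were lower. In leptomeningeal minus parenchymal cells of each origin it had 20 lower and 2 higher, where 31.6% of all genes were lower in donor and 25.7% in host cells.

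Of 26 genes known to rise in mouse microglia that lack TGF-beta signalling, 24 rose and 0 fell in donor minus host microglia (33.1% of all genes rose, list median 2.85). Axl, a receptor for dying cells, had 531 ± 36.2 CPM in donor and 60.7 ± 14.2 CPM in host microglia (3.31, adjusted p = 9.284e-30), and Lyz2, lysozyme, had 6547 ± 823 CPM in donor and 606 ± 89.3 CPM in host microglia (3.61, adjusted p = 1.019e-33). In leptomeningeal minus parenchymal host cells the list also had 24 higher and 0 lower (31.1% of all genes were higher), with Mrc1, a mannose receptor of border macrophages, at 1333 ± 252 CPM in the leptomeninges (n = 4) and 19.2 ± 3.55 CPM in microglia. The other comparisons were mixed. In donor minus host leptomeningeal cells 14 rose and 7 fell, where 16.9% of all genes rose and 13.3% fell. Mrc1 was among those lower there (-1.26). In leptomeningeal minus parenchymal donor cells 17 rose and 5 fell, where 30.5% of all genes rose and 31.6% fell. The list shares 5 of its 26 genes with the border and marrow-derived macrophage markers (Cd163, Cybb, H2-Aa, Lyz2 and Mrc1).

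Genes listed as responding to TGF-beta in many cell types, Id2 and Id3 among them, moved both ways. Of 20 tested, 14 rose and 2 fell in donor minus host microglia, where 33.1% of all genes rose and 27.3% fell. Tgfbi, a matrix protein named for its induction by TGF-beta, had 286 ± 32.1 CPM in donor and 79.2 ± 10.3 CPM in host microglia (2.03, adjusted p = 1.328e-23). Cdkn1a, the cell-cycle inhibitor p21, fell to 320 ± 39.6 CPM in donor microglia, against 2139 ± 251 CPM in host microglia (-2.57, adjusted p = 3.577e-26). Host microglia belong to the irradiated recipients, and the part of irradiation in the level of Cdkn1a was not tested. In leptomeningeal minus parenchymal host cells 9 rose and 7 fell (31.1% and 25.7% of all genes), with Tgfbi at 1144 ± 147 CPM in the leptomeninges (n = 4) and 79.2 ± 10.3 CPM in microglia. Tgfbi and Smad7, both induced by the pathway in other settings, thus had opposite directions in that comparison, Smad7 having fallen by 2.33.

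Around the receptors and the ligand, direction differed by gene, in a comparison that called 60.4% of all genes (33.1% higher and 27.3% lower). In donor minus host microglia 6 of 10 tested receptors fell and 2 rose, among them endoglin (Eng), a co-receptor, at 45.3 ± 12.7 CPM in donor and 283 ± 27.6 CPM in host microglia (-2.48, adjusted p = 3.354e-23), and Acvrl1 (ALK1), a type I receptor, at 129 ± 25.8 CPM in donor and 52.3 ± 4.27 CPM in host microglia (1.48, adjusted p = 3.669e-16). Of 8 ligands tested 6 rose and 2 fell, the 2 being Tgfb1 and Gdf15, while Gdf3 had 71.5 ± 21.5 CPM in donor microglia and 0 to 3.21 CPM in host microglia. The choroid plexus and ependyma markers moved with these ligands, at 1.67 to 3.50% of UMIs in donor and 0.000441 to 0.0179% in host microglia, and their part was not tested. In the difference of donor minus host between compartments 5 of the 8 ligands were lower and 1 was higher (list median -3.52, against 23.2% of all genes lower and 19.1% higher). Of 15 genes for the latent complex and its release 6 rose and 6 fell, with Ltbp3, a latent-complex binding protein, at 32.4 ± 13.7 CPM in donor and 6.72 ± 1.40 CPM in host microglia (2.42, adjusted p = 4.277e-14), and Itgb5, an integrin subunit that pairs with the alpha V subunit, at 655 ± 79.5 CPM in donor and 1752 ± 183 CPM in host microglia (-1.25, adjusted p = 1.287e-14). Of 13 Smads, anchors and co-activators 6 fell and 1 rose, and of 16 inhibitors 7 rose and 6 fell, with the ubiquitin ligase Smurf1 lower (-0.97, adjusted p = 1.92e-09) and the related Wwp1 higher (1.69, adjusted p = 3.746e-08). Of 8 regulators of Ski and Skil turnover 1 rose and 2 fell.

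By genotype these lists held 4 called genes in all. Id2, an inhibitor of differentiation that is a target of TGF-beta family signals, had 286 ± 42.6 CPM in mutant and 191 ± 35.2 CPM in control donor microglia (SD, n = 4 each), without overlap, and rose by 0.60 ± 0.13 (adjusted p = 0.02888). That call was lost when any single 1 of 5 donor microglia libraries was left out, namely mutant 1 and 2 and control 1, 3 and 4 (adjusted p = 0.05097 to 0.1971). The astrocyte and neuron covariate also ended it (0.42 ± 0.16, adjusted p = 0.7653), as did the neutrophil covariate (0.46 ± 0.16, adjusted p = 0.2286). So did fitting the donor microglia groups alone (adjusted p = 0.3635) and leaving out control 1 and mutant 4 together (adjusted p = 0.07821). In host microglia H2-Ab1 and Cd74, of antigen presentation, rose by 1.04 ± 0.17 and 0.96 ± 0.17 (adjusted p = 0.01897 and 0.02575), with H2-Ab1 at 548 ± 164 CPM with mutant and 274 ± 51.9 CPM with control marrow. H2-Eb1, named here after its value was seen, rose by 1.14 ± 0.20 (adjusted p = 0.02575). Leaving out mutant host microglia library 2, 3 or 4, or control library 1 or 2, ended the call of H2-Ab1 (adjusted p = 0.06004 to 0.1201), and Cd74 and H2-Eb1 were lost without any of these or control library 4 (adjusted p = 0.06047 to 0.1329). The 3 calls were also lost in voom (adjusted p = 0.07701 for H2-Ab1, 0.1376 for Cd74 and 0.06962 for H2-Eb1). Fitting the host microglia groups alone also ended them (adjusted p = 0.7803 each). All 3 belong to the list of genes raised in microglia that lack TGF-beta signalling, of whose 26 genes the other 23 were not called. The 12 marrow-derived macrophage markers, H2-Aa among them, held 0.2801 to 0.3515% of UMIs in host microglia with mutant and 0.2527 to 0.2755% with control marrow. Their part in these calls was not tested.

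**Figure D5:**
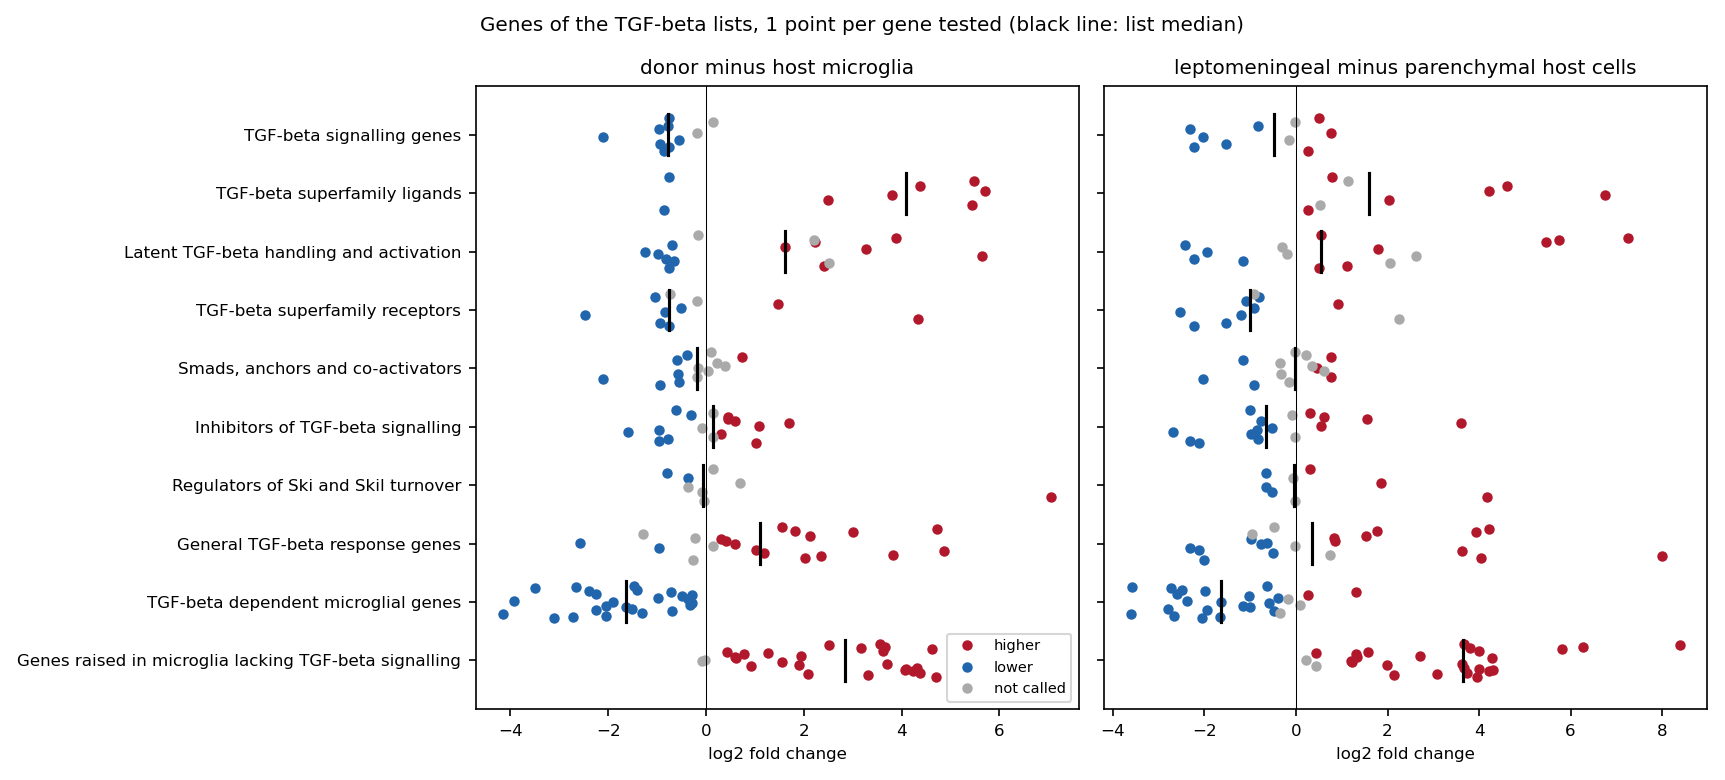
Log2 fold changes of every tested gene of the TGF-beta lists, 1 point per gene, in donor minus host microglia (left) and leptomeningeal minus parenchymal host cells (right), red for genes called higher, blue for lower and grey for not called, with the list median as a black line. All 25 microglial genes that need TGF-beta lie left of 0 in the left panel, and the ligands spread to both sides.

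The genes whose level across the 28 libraries was most like that of a member were ranked among 8458 genes by Pearson's r of log2 CPM. The libraries fall into 4 populations and share their depth and cell makeup, so r describes mainly the order of the populations. Tgfbr1 was most like F11r (r = 0.984) and Trem2 (r = 0.983), Smad7 most like Lpcat2 (r = 0.975), Smad3 most like Ykt6 (r = 0.955), Tgfb1 most like Adam15 (r = 0.95) and Nrros most like Tapbp (r = 0.946). For Skil the closest gene, Cyba, reached r = 0.635, and within the 10 the closest pairs were Tgfbr1 with Smad7 (r = 0.963) and Tgfb1 with Nrros (r = 0.879).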

How the data were processed

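MARS-seq counts 3′ ends of polyadenylated RNA by UMI. The authors deposited 1 table for 28 libraries, with UMI counts, counts divided by size factors (a normalized signal) and rlog values (log2) per the file headers, on mm10 per the submitters' processing notes. Aligner and strand setting are not given in the sources used here. Tests and CPM used only the deposited counts.

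All 28 libraries were fitted together in edgeR 4.0.16 (filterByExpr, TMM, robust quasi-likelihood test, 1 mean per group), with Benjamini-Hochberg adjustment over 12327 genes at 0.05. Totals ran from 479077 to 3066506 UMIs. The 3-UMI level was 0.978 to 6.26 CPM, for counting error only. The procedure was tested on simulated data.

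Members, lists, marker covariates and the 2 donor microglia libraries left out (control 1, mutant 4) were chosen with earlier results of these data known. Outside the members, the genes named were up to 4 per list in an origin or compartment comparison and up to 2 per list in a genotype comparison, by smallest adjusted p at a mean of 10 CPM or more; of these, examples are given. Likeness was ranked among tested genes with a mean of 10 CPM or more. Positions come from GENCODE M21 and promoters from RefSeq. Alternatives were DESeq2 1.42.0 (size factors, Wald test), limma 3.58.1 voom, no filter, groups fitted alone, replicate blocks, marker covariates and each library left out. R 4.3.3 and matplotlib 3.10.9 were used.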

Additional observations from a re-analysis of the deposited data

Results flagged for a closer look

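In 4 of 60 tests of a group of 4 libraries, 1 library lay beyond the 95% limit of Dixon's test for the gap to its nearest neighbour, and chance alone flags about 1 in 20 groups (0.05). Control host microglia library 4 held 17.2 CPM of Tgfbr2 (17.221), above the other 3 libraries. Mutant host microglia library 4 held 36.6 CPM of Smad4 (36.636), below the other 3. Control host microglia library 3 held 131 CPM of Ski (130.73) and library 1 held 626 CPM of Nrros (626.18), each above the rest of its group.

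The donor-minus-host difference was itself different between leptomeninges and parenchyma for 5 genes, by the interaction term of the edgeR fit. On the log2 scale it was higher in the leptomeninges by 0.61 for Tgfb1 (0.61105), 0.79 for Smad2 (0.787318), 1.83 for Smad3 (1.82722), 0.70 for Smad7 (0.696768) and 0.84 for Nrros (0.836633). In each case donor microglia were called lower than host microglia, while donor and host leptomeningeal cells were not called apart in the main fit. For Tgfb1 11 alternative fits did call the leptomeningeal difference (adjusted p = 0.01325 to 0.04599). With the astrocyte and neuron covariate none of these interaction calls remained. Those of Smad2 and Smad7 were lost in 2 alternative fits each (lowest adjusted p = 0.1201 and 0.05281).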

How the results depend on the processing

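Over the 10 genes and all comparisons, 2413 alternative values kept their side of the threshold, 43 lost the threshold, 16 gained it and 3 reversed. A reversal is a change of sign in a value called in the edgeR fit above or in the alternative. Values called in neither fit count as kept even where their sign changed. For example, Tgfb1 in mutant minus control donor microglia ran from -0.20 to 0.12. All 3 reversals came with the astrocyte and neuron covariate, namely Tgfbr1 (0.10 ± 0.69, adjusted p = 0.98) and Ski (0.51 ± 0.69, adjusted p = 0.7891) in donor minus host microglia and Tgfb1 (-0.34 ± 0.52, adjusted p = 0.8768) in the difference between compartments. With that covariate the number of the 10 genes called was 0 in donor minus host microglia, 0 in the difference of donor minus host between compartments and 4 in leptomeningeal minus parenchymal donor cells. With the neutrophil covariate it was 1 in donor minus host leptomeningeal cells, 5 in leptomeningeal minus parenchymal donor cells and 3 in the difference between compartments, and voom called 4 in donor minus host leptomeningeal cells. The cause was not tested. Leaving out 1 library at a time called 0 to 1 genes in mutant minus control donor microglia, 8 to 8 in donor minus host microglia, 2 to 4 in donor minus host leptomeningeal cells, 7 to 8 in leptomeningeal minus parenchymal cells of each origin and 5 to 5 in the difference between compartments; the 4 came without mutant donor leptomeningeal library 3 and added Tgfb1 and Smad4.

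Without the shallowest donor microglia libraries (control 1 and mutant 4) the counts were 8 in donor minus host microglia, 3 in donor minus host leptomeningeal cells, 7 in leptomeningeal minus parenchymal cells of each origin and 5 in the difference between compartments, and 0 between genotypes.

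With the replicate block the counts in these comparisons were 8, 3, 8, 8 and 5, against 8, 2, 8, 8 and 5 without it, Tgfb1 being added in donor minus host leptomeningeal cells (adjusted p = 0.04599), and 0 in every genotype comparison. Same-numbered libraries did not deviate together: in 0 of 15 pairs of groups with 3 or more numbers did every pair correlate above 0.1, so the numbers were not taken as pairing.

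Over all genes, mutant minus control donor microglia gave 11 calls, against 3 to 544 with 1 library left out and 4 to 124 in other fits (544 without control library 2). Host microglia gave 8 (0 to 11 and 0 to 15), donor leptomeningeal cells 6 (4 to 7 and 5 to 11) and host leptomeningeal cells 0 (1 to 5 and 0 to 25). With a marker covariate the lowest counts were 748, against 7448 without it, in donor minus host microglia, 396 against 3718 in donor minus host leptomeningeal cells, 907 against 7650 and 4044 against 6994 in leptomeningeal minus parenchymal donor and host cells, and 261 against 5208 in the difference between compartments. The difference of genotype effects gave 4 calls between donor and host microglia (2 to 74 with 1 library left out) and 0 between donor compartments (0 to 149). Depth limits Tgfbr2 most, and the 2-library host leptomeningeal groups have the widest errors.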
